A study of Homo sapiens with 15 samples.

Results

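The later part of an interleukin-13 (IL-13) time course in A549 cells is described here, as the difference between cells exposed to IL-13 for 24 h and cells exposed for 12 h. The members are the 6 arrays whose labels name these groups, 3 per group, out of 15 in the series. Of 11963 genes with a probe set of their own, 6884 were bright enough to test. A549 is given in the labels as a bronchial line and is known as a lung adenocarcinoma epithelial line. The 5 groups of 3 arrays held total RNA of untreated cells at 0 h, of cells at 24 h labelled as control, and of cells 4 h, 12 h and 24 h after IL-13. The labels name neither the dose of IL-13 nor whether the lettered replicates a, b and c were separate cultures, so p-values cover only array-to-array spread, part of which may be technical. No untreated cells at 4 h or 12 h were among the labelled samples. For the step from 12 h to 24 h, IL-13 and time in culture therefore cannot be told apart.

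IL-13 is a type 2 cytokine that acts on airway epithelium through a receptor of IL4R and IL13RA1 chains, Janus kinases and the transcription factor STAT6. ATF4 is the transcription factor of the amino acid and stress response: when the translation factor eIF2 is phosphorylated, ATF4 protein accumulates and induces genes for amino acid synthesis, amino acid import, tRNA charging and the control of cell death. Heat shock chaperones fold client proteins and are induced by HSF1, and immediate-early genes are those that growth factors and stress switch on without new protein synthesis.

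Between 12 h and 24 h of IL-13, 17 of 25 tested genes of the ATF4 response and 12 of 25 immediate-early genes rose, while 7 of 25 heat shock genes, 13 of 43 mitotic genes (5 with median scaling) and 6 of 37 DNA replication genes fell. Limma, with Benjamini-Hochberg adjustment over all genes and an adjusted p under 0.05 as the threshold for a call, called 427 genes. Of these, 285 were higher at 24 h (4.14% of the genes tested) and 142 lower (2.06%), and 16 rises but only 1 fall reached 2-fold. For 423 of the 427 the normalized values of the 3 arrays at 24 h did not overlap those at 12 h, as was also true of 25% of all genes tested. The number of calls was 196 without IL-13 12 h array a, 204 without 12 h array c, 255 without 24 h array a and 229 without 24 h array c. Differences are given as log2(signal + 20) after quantile normalization ± SE with 3 arrays a group, the median gene stood at -0.0055, and levels are the deposited signals of each array. With median scaling in place of quantile normalization the median gene stood at 0.0504, and 336 genes were called higher and 56 lower, so that 85.7% of the calls were higher in place of 66.7%.

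**Figure D1:**
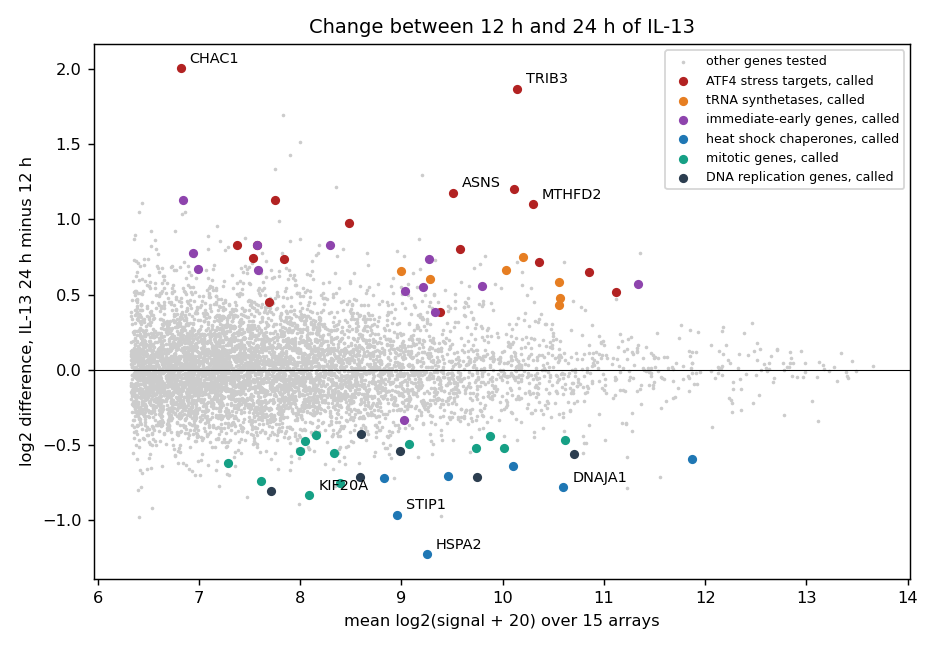
Each point is 1 of the 6884 genes tested, with its mean log2(signal + 20) over 15 arrays on the horizontal axis and the log2 difference between IL-13 24 h and 12 h on the vertical axis. Coloured points are called members of 6 gene lists; CHAC1 at 2.00 and TRIB3 at 1.87 lie highest, and HSPA2 at -1.23 lies lowest.

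Measures of array quality overlapped between the groups compared. Median signals ran from 59.6 to 65.9 at 12 h and from 56.7 to 64.4 at 24 h, and arrays correlated at 0.971 to 0.979 within 12 h, 0.974 to 0.981 within 24 h and 0.955 to 0.970 between them. The 3'/5' signal ratio of the beta-actin control, a measure of RNA integrity, was 1.04 to 1.13 at 12 h and 1.09 to 1.23 at 24 h; its part in the results was not tested. The epithelial keratins KRT8 (mean signals 5040 at 12 h and 5630 at 24 h) and KRT18 (11800 and 11200) were bright, while the lung surfactant gene SFTPC was dim (68.6 and 50.5). The summed signal of 9 epithelial markers was 16000 to 18100 at 12 h and 15800 to 19300 at 24 h. It was 344 to 365 and 217 to 274 for 7 fibroblast markers, 163 to 181 and 108 to 154 for 5 leukocyte markers, 119 to 142 and 85.8 to 125 for 5 endothelial markers, and 131 to 154 and 90.7 to 102 for 2 erythroid markers. The leukocyte gene PTPRC (10.7 and 12.4), LYZ (2.48 and 1.26) and the endothelial gene CDH5 (6.40 and 2.43) were near the bottom of the scale. Other members of these lists were bright enough to test. They were the leukocyte gene ITGAM (113 and 82.8), the endothelial gene PECAM1 (70.3 and 67.6) and the erythroid gene HBB (140 and 94.6). The fibroblast genes COL1A1 (123 and 72.4) and THY1 (104 and 76.4) were tested too. The part of such signals in the results was not tested.

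Of 30 genes on the ATF4 list, 25 were tested, 21 stood above 0 and 4 below, and 17 were called higher and none lower, against 4.14% of all genes tested, and the list's median difference was 0.71 beside -0.0055 over all genes. Across the 17 alternative settings run on this comparison, 14 to 18 members were called. The median of the members' log2 means was 9.19 in untreated cells at 0 h, 9.08 at 4 h and 8.58 at 12 h of IL-13, then 9.0 at 24 h, and 9.34 in control cells at 24 h. Gene by gene the step from 4 h to 12 h was smaller than these medians, with a median change of -0.15 and no member called. Several leading members were about as low at 4 h as at 12 h.

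For 4 of the 14 called members with a RefSeq promoter window (250 bases before to 50 bases after a transcription start, GRCh38.p14), part of the window is shown because it holds the core of the element through which ATF4 and its C/EBP partners act on amino acid response genes. The letters searched were TGATGNAA, on either strand, and capitals mark each match. The stretches are those of ASNS on the minus strand at chr7:97872422-97872521, CHAC1 at chr15:40953221-40953320, CEBPG at chr19:33374013-33374112 and ATF3 at chr1:212565171-212565270 on the plus strand, each read 5′ to 3′ in the direction of the gene.
ASNS: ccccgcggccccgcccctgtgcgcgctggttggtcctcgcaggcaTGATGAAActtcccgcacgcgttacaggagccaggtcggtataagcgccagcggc
CHAC1: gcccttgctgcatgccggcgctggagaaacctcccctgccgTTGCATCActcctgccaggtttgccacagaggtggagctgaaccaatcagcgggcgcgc
CEBPG: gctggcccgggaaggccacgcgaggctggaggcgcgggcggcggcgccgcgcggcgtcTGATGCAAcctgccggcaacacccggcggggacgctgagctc
ATF3: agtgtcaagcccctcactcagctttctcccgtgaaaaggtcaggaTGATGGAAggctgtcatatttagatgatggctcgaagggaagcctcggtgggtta
The match began 68 bases before the start site in ASNS, 209 in CHAC1, 42 in CEBPG and 191 in ATF3. With SLC7A1, whose match lies after its start site, 5 of 14 called members held the letters (35.7%). Among the other tested members it was 2 of 7, beside 2.91% of the 5744 tested genes with a window and 3.62% of all 35116 windows. A match is a description of the letters and no measure of binding.

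Among the ATF4 effectors, TRIB3, a pseudokinase that feeds back on the stress response, gave signals of 467, 554 and 551 at 4 h, 454, 471 and 433 at 12 h and 2010, 1660 and 1500 at 24 h. Every 24 h array lay above every 12 h array, and the 24 h values fell in or just below the range of the controls at 24 h (1510 to 2320). The rise of TRIB3 was 1.87 ± 0.15 (3.65-fold, limma adjusted p = 7.36e-07). CHAC1, an enzyme that degrades glutathione, gave 36.8, 22.4 and 51.6 at 4 h, 48.2, 32.1 and 34.1 at 12 h and 240, 185 and 212 at 24 h. Here the 24 h arrays lay above both the 12 h arrays and the controls at 24 h (107 to 177), and the rise was 2.00 ± 0.21 (4.01-fold, limma adjusted p = 1.34e-05). Other effectors rose as well. DDIT4, an inhibitor of mTORC1 signalling, went from 718 to 786 at 12 h to 1610 to 1980 at 24 h (1.20 ± 0.13). The stress regulator NUPR1 rose by 1.13 ± 0.16 and the secreted glycoprotein gene STC2 by 0.83 ± 0.13. NUPR1 gave 227 to 289 at 24 h of IL-13, beside 214 to 274 at 0 h and 218 to 263 in controls at 24 h. The other bright probe set of STC2 stood at 2.55, and the mean of its probe sets at 1.69.

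Of 7 enzymes of amino acid and one-carbon synthesis, 4 rose. Asparagine synthetase, ASNS, gave 467, 480 and 404 at 12 h and 1320, 927 and 967 at 24 h, a rise of 1.18 ± 0.17 (2.26-fold, limma adjusted p = 0.000451). The controls at 24 h lay between the groups, from 597 to 789. Untreated cells at 0 h gave 747 to 1060, above the 12 h arrays and overlapping those at 24 h of IL-13. The mitochondrial folate enzyme MTHFD2 gave 776, 794 and 692 at 12 h and 1750, 1450 and 1820 at 24 h (1.10 ± 0.09, 2.15-fold, limma adjusted p = 7.36e-07), and the controls at 24 h (1450 to 1620) stood with the 24 h arrays. The serine synthesis enzymes PSAT1 (0.71 ± 0.10) and PSPH (0.74 ± 0.14) also rose, whereas PHGDH, the first enzyme of that route, stood at 0.13 ± 0.13 (adjusted p = 0.63) and the folate enzyme SHMT2 at -0.20 ± 0.12 (adjusted p = 0.377). The sign of SHMT2 depended on the probe set: others stood at 0.58 and 0.34, and the mean of all at 0.24 (adjusted p = 0.131). The cystathionine synthase CBS missed the threshold at 0.61 ± 0.18 (adjusted p = 0.0523).

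Among the transcription factors, ATF4 itself gave 1390, 1600 and 1430 at 12 h and 2400, 2340 and 2090 at 24 h (0.65 ± 0.10, limma adjusted p = 0.0011). Its dimer partner CEBPG gave 226, 264 and 225 at 4 h, 225, 214 and 231 at 12 h and 500, 435 and 479 at 24 h (0.98 ± 0.11, 1.97-fold, limma adjusted p = 2.87e-05). For both genes the 12 h and 24 h groups did not overlap. The 24 h values of CEBPG overlapped those at 0 h (383 to 457), and those of ATF4 lay above 0 h (1730 to 2050). ATF3 rose by 0.83 ± 0.13, the pro-apoptotic factor DDIT3, also called CHOP, by 0.73 ± 0.16 and CEBPB by 0.52 ± 0.12, while ATF5 stood at -0.06 ± 0.14 (adjusted p = 0.869). The CEBPB call was lost without 12 h array a or c or 24 h array a or b.

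The amino acid transporters of the list did not move as 1 group. The cystine carrier SLC7A11 gave 509, 581 and 547 at 12 h and 1020, 828 and 1160 at 24 h, without overlap (0.80 ± 0.12, limma adjusted p = 0.000869, other probe sets 0.98 and 0.15). The cationic amino acid carrier SLC7A1 rose by 0.38 ± 0.11, a call lost in 10 of the 17 settings (0.18 with the probe sets averaged). The heavy and light chains of the leucine exchanger, SLC3A2 (-0.12 ± 0.12) and SLC7A5 (-0.12 ± 0.13), and the glutamine carrier SLC1A5 (0.42 ± 0.16, adjusted p = 0.132) were not called.

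Cytosolic aminoacyl-tRNA synthetases, which charge tRNAs with amino acids and many of which are ATF4 targets, rose in part. Of 17 tested, 7 were called higher (41.2%, against 4.14% of all genes tested) and none lower, and the median difference was 0.29. The median of the members' log2 means was 9.55 at 0 h, 9.16 at 4 h and 8.99 at 12 h of IL-13. At 24 h it was 9.46 with IL-13 and 9.34 in controls. CARS1, for cysteine, gave 789, 971 and 865 at 12 h and 1710, 1390 and 1470 at 24 h (0.75 ± 0.12, limma adjusted p = 0.000869). TARS1 (0.66 ± 0.11), EPRS1 (0.66 ± 0.12), SARS1 (0.61 ± 0.11), GARS1 (0.58 ± 0.12), NARS1 (0.48 ± 0.08) and IARS1 (0.43 ± 0.11) were the others called; EPRS1 was not called when its probe sets were averaged (0.31), and that of IARS1 in 5 of 17 settings. LARS1 (0.00 ± 0.13), KARS1 (-0.10 ± 0.08) and RARS1 (-0.12 ± 0.14) were among the 10 that were not called.

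**Figure D2:**
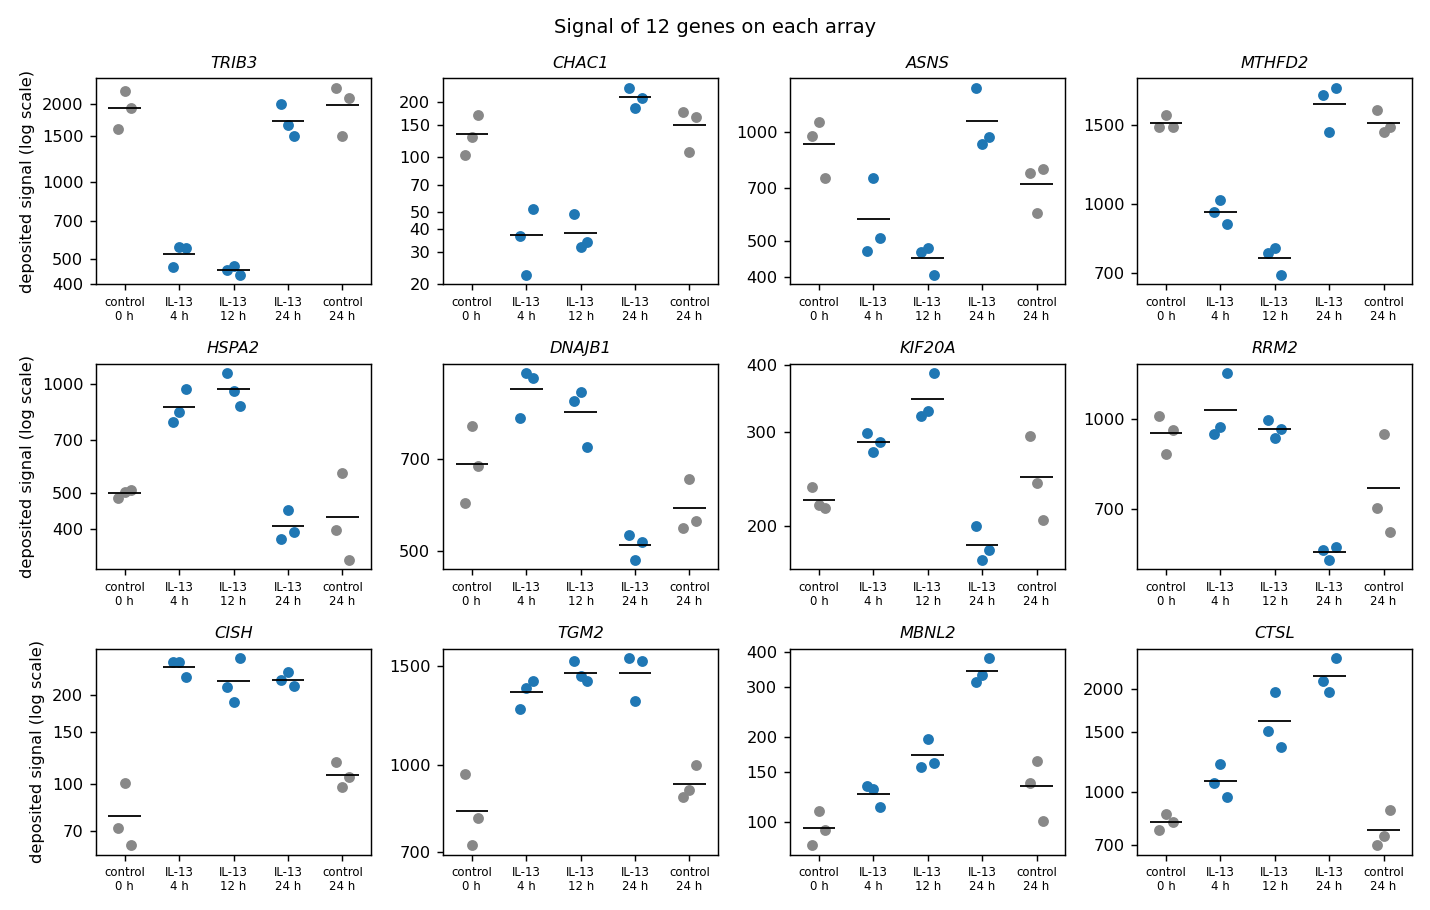
Each panel plots the deposited signal of 1 gene, on a log scale, on each of the 15 arrays by group; grey points are cells without IL-13, blue points cells with IL-13, and the bar is the group mean of 3 arrays. TRIB3, CHAC1, ASNS and MTHFD2 are low at 12 h and high at 24 h, HSPA2, DNAJB1, KIF20A and RRM2 run the other way, CISH and TGM2 overlap between 12 h and 24 h, and MBNL2 and CTSL are higher at 24 h.

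Of 25 immediate-early and growth-responsive genes tested, 12 were called higher (48%, against 4.14% of all genes tested) and 1 lower (4%, against 2.06%), with a median of 0.39. The count of rises was 8 without 12 h array a or b or 24 h array a. The median of the members' log2 means was 8.04 at 0 h, 7.70 at 4 h and 7.65 at 12 h of IL-13. At 24 h it was 8.01 with IL-13, close to that at 0 h, and 7.95 in controls. The zinc finger factor KLF6 gave 113, 159 and 134 at 0 h, 74.7, 79.7 and 27.7 at 12 h and 176, 142 and 122 at 24 h (1.13 ± 0.23, limma adjusted p = 0.00693). A further probe set of KLF6 stood at 1.48 and another at 0.00. The Krüppel-like factor KLF4 gave 141, 145 and 130 at 0 h, 61.6, 78.5 and 76.1 at 12 h and 143, 139 and 125 at 24 h (0.78 ± 0.13, limma adjusted p = 0.00136). The matrix protein gene CCN1 gave 559, 510 and 523 at 0 h, 159, 213 and 168 at 12 h and 444, 320 and 277 at 24 h (0.83 ± 0.17, other probe set 0.34). In none of these 3 genes did the 12 h and 24 h groups overlap. The 24 h values of KLF6 and KLF4 overlapped those at 0 h, and those of CCN1 lay below them. PHLDA1 (0.73 ± 0.13, 0.43 with the probe sets averaged), the phosphatase gene DUSP1 (0.57 ± 0.11), IER3 (0.55 ± 0.10) and the survival factor MCL1 (0.55 ± 0.12) rose too, the last not called without 12 h array a or when its probe sets were averaged (0.24). The 1 fall was IER5 (-0.33 ± 0.09, lost in 9 of 17 settings). JUN (-0.09 ± 0.17), EGR1 (0.32 ± 0.17, 0.01 with the probe sets averaged) and FOSL1 (0.06 ± 0.16) were not called. The sign of JUN depended on the probe set: further bright ones stood at 0.63 and 0.54, and their average with the one used gave 0.36 (adjusted p = 0.212). The AP-1 letters TGANTCA were found in 0 of 7 called members with a promoter window, in 1 of 10 others and in 7.12% of the tested genes.

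Several of the largest rises lay outside these lists or in more than 1 of them. PMAIP1, which encodes the pro-apoptotic BH3 protein NOXA, gave 112, 126 and 118 at 12 h and 453, 381 and 464 at 24 h (1.69 ± 0.14, 3.23-fold, limma adjusted p = 7.36e-07), and its other probe set stood at 1.48. TSC22D3, a glucocorticoid-induced leucine zipper, gave 118, 145 and 132 at 12 h and 453, 409 and 393 at 24 h (1.51 ± 0.12, 2.85-fold). A dimmer probe set of TSC22D3 stood at 0.31, and the average of both was 0.91, still called. IFRD1, a transcriptional co-regulator, went from 121 to 140 up to 366 to 462 (1.43 ± 0.14). All 3 genes were higher on every 24 h array. SMOX, the spermine oxidase, rose by 1.29 ± 0.14 (0.75 with the probe sets averaged), the esterase AADAC by 1.34 ± 0.19 and the growth arrest gene GADD45A by 1.0 ± 0.14. AADAC at 24 h of IL-13 (232 to 355) overlapped the cells at 0 h (195 to 286) and the controls at 24 h (254 to 343). SMOX did so too, with 676 to 1050 beside 646 to 742 and 626 to 825. PMAIP1, TSC22D3, IFRD1 and GADD45A lay above both groups without IL-13. The kinase CLK2 (1.05 ± 0.29) lost its call in 7 of 16 settings. Of the glucocorticoid list, which holds TSC22D3, 3 of 15 were called higher (20%, against 4.14% of all genes) and 1 lower (6.67%, against 2.06%), with a median of -0.09.

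Epidermal growth factor ligands and inflammatory genes gave scattered rises. The EGF receptor ligand EREG gave 130, 136 and 115 at 12 h and 217, 253 and 276 at 24 h (0.86 ± 0.12, 1.81-fold, limma adjusted p = 0.000353); it lay under the controls at 24 h (278 to 338). PTGS2, the inducible cyclooxygenase, gave 54.5, 37.1 and 80.9 at 12 h and 138, 142 and 118 at 24 h (1.03 ± 0.17), again under the controls at 24 h (214 to 226). The neutrophil chemokine CXCL2 rose by 0.82 ± 0.14 (0.54 with a pseudocount of 60) on a probe set that can cross-hybridize. Of the EGF receptor list 3 of 14 (21.4%) and of the inflammatory list 3 of 22 (13.6%) were called higher and none lower, against 4.14% of all genes tested. Their medians were 0.15 and 0.07. Of 13 complement and acute phase genes, all 13 stood above 0 and 4 were called (30.8%, against 4.14% of all genes tested). The 4 were FGG, the fibrinogen gamma chain (0.66 ± 0.13), the complement inhibitor CD55 (0.68 ± 0.12), CD46 and C5. The last 2 lost their calls in 8 and 9 of 17 settings (CD46 stood at 0.25 with the probe sets averaged). The interferon and antigen presentation list had 3 of 22 called higher (13.6%, against 4.14% of all genes tested). Among them was the class I light chain B2M, which went from 2150, 2380 and 2600 to 3050, 3060 and 3100 (0.47 ± 0.09).

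Of 25 heat shock chaperones and co-chaperones tested, 7 were called lower and none higher, against 2.06% of all genes tested, and 20 stood below 0 with a median of -0.13. The median of the members' log2 means was 10.03 at 0 h, 10.08 at 4 h and 10.11 at 12 h of IL-13. At 24 h it was 9.99 with IL-13 and 9.98 in controls. HSPA2, an HSP70 family member, gave 1070, 956 and 869 at 12 h and 375, 450 and 392 at 24 h (-1.23 ± 0.15, 2.34-fold lower, limma adjusted p = 5.91e-05), and was the only gene called at least 2-fold lower. Its 24 h values lay within the range of the controls at 24 h (328 to 570). The HSP90 co-chaperone STIP1 gave 797, 720 and 723 at 12 h and 371, 339 and 432 at 24 h (-0.96 ± 0.16), and its other probe set stood at -0.50. The HSP40 gene DNAJA1 gave 2130, 2270 and 2120 at 12 h and 1200, 1050 and 1500 at 24 h (-0.78 ± 0.11, other probe set -0.79). DNAJB1 gave 866, 895 and 732 at 12 h and 531, 484 and 517 at 24 h (-0.71 ± 0.10, other probe set -0.53). None of these genes had overlapping 12 h and 24 h groups. At 24 h of IL-13, STIP1 and DNAJA1 overlapped the controls at 24 h (256 to 432 and 1070 to 1390), and DNAJB1 lay below them (545 to 651). Cells at 0 h gave 353 to 544 for STIP1, 1490 to 1560 for DNAJA1 and 596 to 788 for DNAJB1. The co-chaperone BAG3 (-0.72 ± 0.11), the mitochondrial co-chaperonin HSPE1 (-0.64 ± 0.12) and HSP90AB1 (-0.59 ± 0.08, other probe set -0.66) completed the calls, and all 7 were called in every setting run. HSP90AA1 (-0.28 ± 0.10, adjusted p = 0.11), HSPH1 (-0.28 ± 0.11, adjusted p = 0.131), HSPD1 (-0.13 ± 0.08) and HSPA9 (0.26 ± 0.09, adjusted p = 0.11) did not pass. With probe sets averaged HSPH1 (-0.49, limma adjusted p = 0.00919) and HSPD1 (-0.22, limma adjusted p = 0.0465) were called, and HSPA9 stood at 0.04.

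Promoter stretches of both DNAJ genes are shown because they hold part of the heat shock element, searched as GAANNTTC, which reads the same on both strands and stands in capitals. They are DNAJB1 on the minus strand at chr19:14518420-14518519 and DNAJA1 on the plus strand at chr9:33025030-33025129, from RefSeq on GRCh38.p14.
DNAJB1: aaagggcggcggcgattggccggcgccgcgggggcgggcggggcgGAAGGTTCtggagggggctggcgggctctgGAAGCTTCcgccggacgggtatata
DNAJA1: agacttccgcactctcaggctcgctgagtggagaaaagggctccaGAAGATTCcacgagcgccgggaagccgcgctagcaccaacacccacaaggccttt
The first match began 77 bases before the start site in DNAJB1 and 198 in DNAJA1. In all, 3 of 7 called members (42.9%) and 5 of 16 others held these letters, beside 6.82% of the tested genes, so they were present in members that fell and in members that did not pass.

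Of 43 mitotic genes tested, 13 were called lower (30.2%, against 2.06% of all genes tested) and none higher, 38 stood below 0 and the median was -0.30. The median of their log2 means was 8.43 at 0 h, 8.37 at 4 h, 8.37 at 12 h, 8.05 at 24 h of IL-13 and 8.35 in controls at 24 h, so the 24 h arrays were the low point here. The count of falls was 5 with median scaling, 7 without 12 h array a and 7 without 12 h array c. In bulk RNA, fewer cells in mitosis and less RNA per cell cannot be told apart. The mitotic kinesin KIF20A gave 322, 328 and 387 at 12 h and 200, 173 and 181 at 24 h (-0.84 ± 0.12, limma adjusted p = 0.000485). Its values did not overlap, and the 24 h arrays lay below the controls at 24 h (206 to 295). The kinase AURKB (-0.75 ± 0.17) and separase, ESPL1 (-0.74 ± 0.17), fell too, but AURKB lost its call without 12 h array a or c or 24 h array a, and ESPL1 without 12 h array a (ESPL1 stood at -0.49 without 24 h array b). The ubiquitin-conjugating enzyme UBE2C gave 869, 995 and 844 at 12 h and 720, 600 and 588 at 24 h (-0.52 ± 0.09), and it was not called with median scaling. Cyclin B1, CCNB1, went from 939 to 1130 down to 730 to 807 (-0.44 ± 0.09); this call too was lost with median scaling, and without 12 h array a. MKI67 (-0.27 ± 0.11, adjusted p = 0.182), CDK1 (-0.34 ± 0.13, adjusted p = 0.143), TOP2A (-0.12 ± 0.10) and PLK1 (-0.30 ± 0.13) did not pass. The other bright probe set of TOP2A stood at -0.92, and with both averaged TOP2A was called (-0.52, limma adjusted p = 0.0115).

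Of 37 DNA replication genes, 6 were called lower (16.2%, against 2.06% of all genes tested) and none higher, 33 stood below 0 and the median was -0.29. Without 12 h array b or without 24 h array a, 3 were called. The ribonucleotide reductase subunit RRM2 gave 997, 927 and 963 at 12 h and 595, 572 and 602 at 24 h (-0.71 ± 0.12, 1.64-fold lower, other probe set -0.55). The helicase subunit MCM2 gave 423, 366 and 439 at 12 h and 203, 263 and 269 at 24 h (-0.71 ± 0.14). For both, no 24 h array reached the lowest 12 h array. The replication initiation factor MCM10 (-0.81 ± 0.18) lost its call with only the compared groups in the model and without 12 h array b or c or 24 h array a (-0.52 without the last). Thymidylate synthase, TYMS, fell by 0.56 on the log2 scale (SE 0.09) and was not called when its probe sets were averaged (-0.24). MCM7 (-0.54 ± 0.13) and GINS1 (-0.43 ± 0.11) each lost theirs in 6 of 17 settings. PCNA (-0.18 ± 0.20), MCM3 (-0.11 ± 0.13) and TK1 (-0.11 ± 0.13) were not called.

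In the promoter windows, the E2F letters TTTGGCGC or TTTCCCGC were found in 3 of 6 called and 13 of 29 other replication genes, beside 4.89% of the tested genes. The CHR letters TTTGAA were found in 5 of 11 called and 19 of 25 other mitotic genes, beside 14.3% of the tested genes. The CCAAT box was found in 8 of 11 and 23 of 25, beside 45% of the tested genes. The letters were thus common in members that did not pass as well.

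Outside the lists, the largest falls included H2AX, the histone variant phosphorylated at DNA breaks, with 786, 818 and 793 at 12 h and 420, 438 and 364 at 24 h (-0.97 ± 0.11, limma adjusted p = 2.87e-05). Other probe sets of H2AX stood at -0.19, -0.29 and 0.08, and the call was lost with their mean (-0.34). Stratifin, SFN, an epithelial 14-3-3 protein, gave 3280, 3150 and 2970 at 12 h and 1760, 1870 and 1760 at 24 h (-0.79 ± 0.08, limma adjusted p = 1.33e-05, other probe sets -1.07 and -0.70). The groups of both genes lay well apart. The kinase CAMKK2 (-0.89 ± 0.16, -0.54 with the probe sets averaged) and NT5DC2 (-0.85 ± 0.16) kept their calls in every setting, and H6PD (-0.92 ± 0.25) lost its call in 6 of 15 settings (-0.50 without 24 h array a). Its signal on 24 h array a, 16.2, was low beside 79.8 and 63.6 on b and c.

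**Figure D3:**
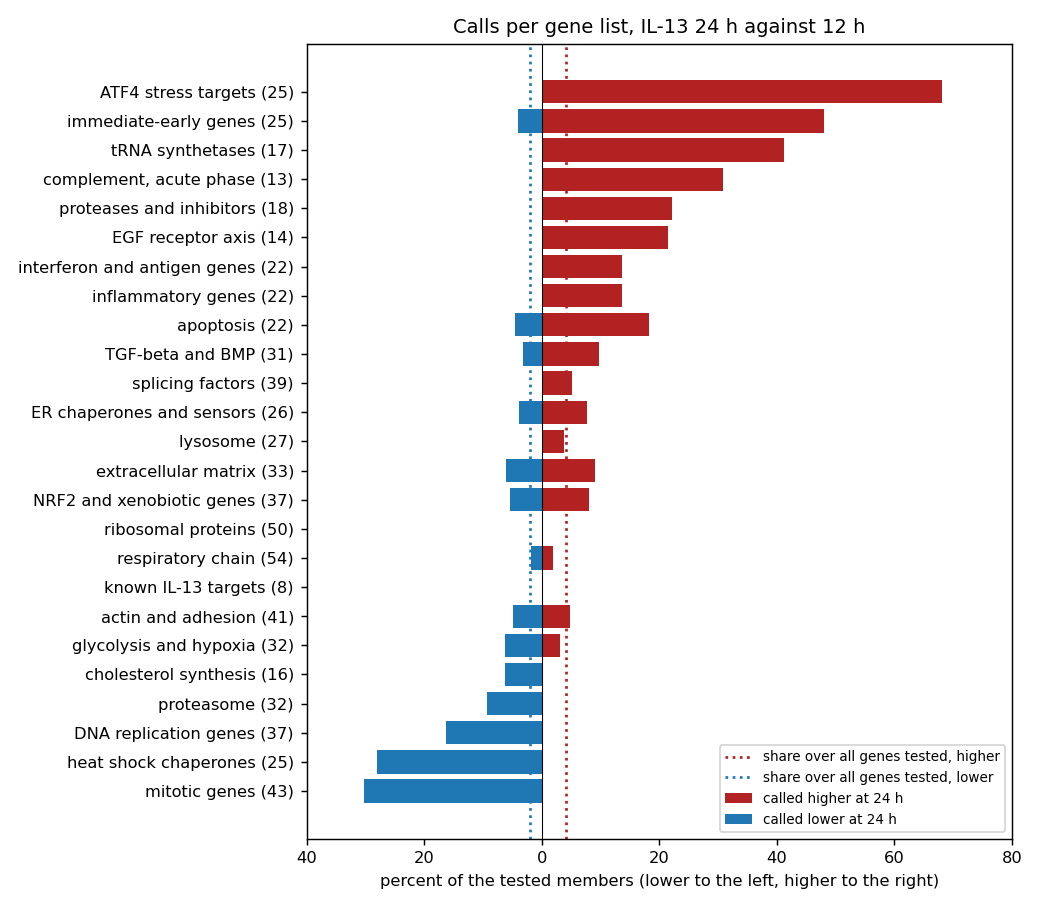
Bars give the percent of each list's tested members (number in brackets) called higher (to the right) or lower (to the left) at IL-13 24 h against 12 h; dotted lines mark 4.14% and 2.06%, the shares over all genes tested. The ATF4, immediate-early and tRNA synthetase lists reach farthest to the right, and the mitotic and heat shock lists farthest to the left.

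Lists of other basic functions are given beside the shares over all genes, 4.14% higher and 2.06% lower. Of 50 ribosomal protein genes none was called (median 0.03), of 54 respiratory chain genes 1 was called higher and 1 lower (1.85% each, median 0.00), and of 39 splicing genes 2 were called higher (5.13%, median 0.01). Endoplasmic reticulum chaperones and sensors, genes of the unfolded protein response, gave 2 rises (7.69%) and 1 fall (3.85%) among 26 (median 0.04). These were XBP1 (0.76 ± 0.14), HERPUD1 (0.51 ± 0.12) and MANF (-0.39 ± 0.10), and the last 2 lost their calls in 4 and 6 of 17 settings. The proteasome list had 3 of 32 called lower (9.38%, median -0.08), and the cholesterol synthesis list 1 of 16 (6.25%), the sterol sensor INSIG1 (-0.55 ± 0.15, lost in 7 of 16 settings, -0.29 with the probe sets averaged).

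Of 28 genes with large changes by IL-13 at 24 h, 2 were called higher between 12 h and 24 h (7.14%, against 4.14% of all genes tested). Another 4 were called lower (14.3%, against 2.06%), and the median difference of the 28 was 0.01. The 28 were chosen in earlier work on these arrays for their difference between IL-13 24 h and control 24 h, so their direction at 24 h is not independent evidence. CISH, a STAT-induced feedback inhibitor, gave 213, 189 and 266 at 12 h and 224, 238 and 214 at 24 h, beside 97.9 to 119 in the controls at 24 h. Its groups overlapped, and the difference was 0.01 ± 0.14 with a 95% interval of -0.30 to 0.31. The transglutaminase TGM2 gave 1530, 1440 and 1410 at 12 h and 1550, 1300 and 1530 at 24 h (-0.01 ± 0.10, interval -0.22 to 0.20), and hexokinase HK1 gave 569, 440 and 543 and then 554, 486 and 475 (-0.05 ± 0.13, interval -0.32 to 0.21). OLFML2A (0.02 ± 0.18) and ENC1 (0.01 ± 0.22) were not called and had wider errors.

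A few of the 28 went on changing. The splicing regulator MBNL2 gave 157, 197 and 162 at 12 h and 312, 330 and 380 at 24 h (0.88 ± 0.16, 1.84-fold, limma adjusted p = 0.00273), but other probe sets stood at 0.37 and -0.15 and the call was lost with their mean. Cathepsin L, CTSL, gave 1510, 1970 and 1360 at 12 h and 2110, 1970 and 2470 at 24 h (0.50 ± 0.12, limma adjusted p = 0.0216). As deposited its array b read the same at both times; the call was lost with median scaling and without 12 h array a or c or 24 h array c. The 4 falls were MCM10, MCM2 and TYMS, given above, and the collagen COL1A1 (-0.61 ± 0.15, -0.24 with the probe sets averaged), which is also a fibroblast marker and lost its call in 6 of 16 settings. RGS2 (0.54 ± 0.16, adjusted p = 0.0575), MSX1 (0.41 ± 0.13, adjusted p = 0.0631) and C3 (0.72 ± 0.26, adjusted p = 0.11) stood higher at 24 h without passing. Of the pathway's own genes 8 were tested and none was called, with IL13RA1 at -0.13 ± 0.13, STAT6 at -0.08 ± 0.11 and JAK1 at -0.03 ± 0.08. IL4R, IL13RA2, JAK2 and SOCS1 were too dim to test.

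The preceding and shorter step of the time course, from 4 h to 12 h of IL-13, was smaller by calls. Limma called 0 of 6884 genes (0%), with 697 at an unadjusted p under 0.05 and a smallest adjusted p of 0.0681. The count was 1 with median scaling, 1 with a pseudocount of 60, 4 with only these groups in the model and 3 without 12 h array a. This step shares the 12 h arrays with the step from 12 h to 24 h, so the pair is given side by side and was not tested against each other. The median of the ATF4 list was -0.15 from 4 h to 12 h and 0.71 from 12 h to 24 h, and that of the mitotic list -0.01 and -0.30.

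Time in culture without IL-13 was available only as control 24 h against control 0 h, an interval of 24 h and not the 12 h of the step above. No array is shared between these comparisons. Limma called 119 genes higher (1.73%) and 130 lower (1.89%) in culture alone. Called in both were 45 genes, which is 10.5% of the calls between 12 h and 24 h of IL-13 and 18.1% of those in culture; 38 moved in the same direction and 7 in opposite ones. Over the genes tested the differences correlated weakly (r 0.12, rho 0.1, across genes that share arrays and are not independent). In culture, 2 of the 25 ATF4 genes were called higher, DDIT4 (0.88, adjusted p = 0.00113) and SLC7A11 (0.66, adjusted p = 0.00819), with a list median of 0.07. Of the immediate-early genes 3 were called lower, CCN1 (-0.94), FOSL1 (-0.67) and FOSL2 (-0.80). None of the tRNA synthetase, heat shock, mitotic or replication genes was called there.

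The difference of the changes, the step from 12 h to 24 h of IL-13 minus the step from 0 h to 24 h without it, was called higher for 78 genes (1.13%) and lower for 39 (0.567%). The steps start from unlike levels, so a called difference need not mean unlike levels at 24 h. TRIB3 started from 433 to 471 at 12 h of IL-13 and from 1610 to 2260 at 0 h, and its 24 h groups overlapped. CHAC1 started from 32.1 to 48.2 and from 102 to 170, and its 24 h groups did not overlap. The difference was called higher for 7 of the 25 ATF4 genes and lower for none: CHAC1 (1.93, limma adjusted p = 0.0028), TRIB3 (1.74, limma adjusted p = 0.00124), ASNS, NUPR1, CEBPG, MTHFD2 and PSAT1. DDIT4 (0.32, adjusted p = 0.379) and SLC7A11 (0.14, adjusted p = 0.719), which rose in culture alone, were not among them. The same held for PTGS2, at 1.03 with IL-13 and 1.21 without (difference -0.18, adjusted p = 0.75). Among tRNA synthetases 4 of 17 were called higher, SARS1, EPRS1, GARS1 and TARS1, and among immediate-early genes 7 of 25, CCN1, KLF6 and KLF4 included. Among heat shock genes HSPA2 (-1.03, limma adjusted p = 0.017), BAG3 (-0.67) and DNAJB1 (-0.58) were called lower, among replication genes MCM2 (-0.79) and TYMS (-0.69), and among mitotic genes KIF20A (-0.95). These counts moved with scaling: with median scaling the median gene stood at -0.1769 in culture and at 0.2517 in the difference, which was then called higher for 734 genes and lower for 14 (98.1% of calls higher), and in culture 4.46% of calls were higher in place of 47.8%. The count of 117 was between 51 and 145 when 1 array was left out; dropping control 0 h array a or b gave 51 or 60, dropping 12 h array a or c gave 53 or 62, and dropping IL-13 24 h array a gave 68. The 249 calls in culture became 146 or 66 when control 24 h array a or c was dropped, and 141, 73 or 115 when control 0 h array a, b or c was.

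**Figure D4:**
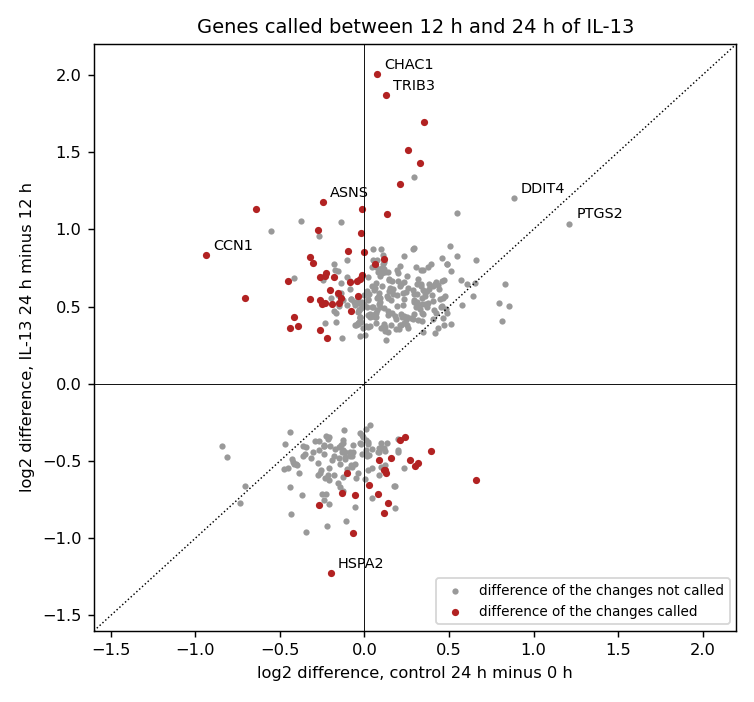
Each point is 1 of the 427 genes called between 12 h and 24 h of IL-13, with its log2 difference in culture without IL-13 (control 24 h minus 0 h) on the horizontal axis and its log2 difference between IL-13 24 h and 12 h on the vertical axis; red points are those for which the difference of the changes was called, and the dotted line marks equal change. DDIT4 and PTGS2 lie near the line, and TRIB3 and CHAC1 lie far above it at 0.13 and 0.07 on the horizontal axis.

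Where a called gene had further bright probe sets, 187 of 213 (87.8%) had the sign of the one used, beside 1849 of 2809 (65.8%) over all genes tested. Of the 143 called genes followed through the settings, which are the named genes and list members, 59 were called in every setting and 84 lost the call in at least 1.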

How the data were processed

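Signal intensity per probe set was used on its linear scale as deposited by the authors, for 15 arrays. The computation behind these values was not given in the sources used here. Each array had a mean of 150 once 2% of values were trimmed from either end. The chip carries 22283 probe sets. Of these, 19065 had 1 gene symbol in GEO's platform annotation and were used, 19053 of them matched to RefSeq by Entrez identifier; 1043 with several symbols, 2107 with none and 68 controls were left out.

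The arrays were quantile normalized, then a pseudocount of 20 was added and log2 taken, so fold changes of dim genes are understated. Each gene was represented by its brightest probe set, of the cross-hybridizing _x_at kind only where it had no other (CISH, CXCL2, HBB, KRT8, MPPE1 and MT2A among named genes). The filter kept genes with a mean log2 over 6.33, the median over non-control probe sets. The test was limma 3.58.1 in R 4.3.3, with a mean for each of 5 groups fitted to the 15 arrays jointly (10 residual degrees of freedom), a variance trend, two-sided tests, Benjamini-Hochberg adjustment and a threshold of 0.05, in 4 comparisons. The number of arrays limits precision. The steps were tested on simulated data.

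Named were the 15 largest called rises and falls without overlap, up to 4 called members of each of 44 gene lists, and the IL-13 genes; other members of 6 lists were named after their values were seen. Members and lists were chosen with earlier results of these data known. The alternatives changed 1 choice at a time: scaling (deposited or median), pseudocount (5 or 60), filter (none, or the 75th percentile), probe sets (averaged, or each tested on its own), model (compared groups alone, no variance trend, array weights, a replicate block) and each array left out in turn. Promoter windows and their coordinates are RefSeq's, build GRCh38.p14.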

Additional observations from a re-analysis of the deposited data

Results flagged for a closer look

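The change between 12 h and 24 h of IL-13 differed from the change between 0 h and 24 h without IL-13 for 117 genes by limma's test of the difference itself (adjusted p under 0.05). The intervals compared are 12 h and 24 h long. Of the 117, 7 genes were also called in each comparison on its own, in opposite directions. These 7 were picked for those opposite calls in the same fit. Their adjusted p-values for the difference largely follow from that choice and are no further support.

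CCN1, a matrix protein induced by growth factors, rose by 0.83 with IL-13 and stood at -0.94 without it, a difference of 1.77 (limma adjusted p = 0.00125). Its signals were 510 to 559 at 0 h and 159 to 213 at 12 h of IL-13. At 24 h they were 277 to 444 with IL-13 and 232 to 337 in controls. Both 24 h groups thus lay below 0 h, and their ranges overlapped. AKTIP, a partner of the kinase AKT, was at 0.55 and -0.71 (difference 1.26, limma adjusted p = 0.00716). CTPS1, which makes CTP, was at 0.44 and -0.42 (difference 0.85, limma adjusted p = 0.00777). The immunoproteasome subunit PSMB9 was at 0.36 and -0.44 (difference 0.80, limma adjusted p = 0.00954; its call between 12 h and 24 h was lost in 10 of 16 settings), and the focal adhesion gene TES at 0.37 and -0.39 (difference 0.76, limma adjusted p = 0.00284). FOLR1, a folate receptor, fell with IL-13 (-0.62) and rose without it (0.66), a difference of -1.29 (limma adjusted p = 0.00669). MEGF9 was at -0.43 and 0.39 (difference -0.83, limma adjusted p = 0.00753).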

How the results depend on the processing

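The count of 427 calls between 12 h and 24 h of IL-13 was between 316 (only the compared groups) and 558 (every probe set) in the settings that kept all arrays, and between 196 and 369 when 1 array was left out. Deviations of same-lettered arrays at 12 h and 24 h correlated at 0.03, -0.13 and -0.10, so no shared deviation was seen. These values do not tell whether the letters paired the samples by design. With the replicate block the count was 360. In culture without IL-13 the count of 249 became 1077 with median scaling, 154 with no filter and 479 with every probe set, and 66 to 227 when 1 array was left out. Between 4 h and 12 h the count of 0 became 1 with median scaling, 1 with a pseudocount of 60, 4 with only the compared groups, and 0 to 3 when 1 array was left out. The count of 117 for the difference of the changes became 748 with median scaling, 68 with no filter, 212 with every probe set, 70 with no variance trend and 197 with array weights, and 51 to 145 when 1 array was left out. GRB10 (0.31) turned to -0.01 with the mean of its probe sets. Of 136 uncalled genes followed, 36 changed sign and 26 were called in at least 1 setting. The causes were not tested. Precision is limited by 3 arrays a group, and signals near the pseudocount give no firm fold.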

Other observations

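Of 233 list members too dim for the main test, 5 were called between 12 h and 24 h of IL-13 when no filter was applied, all 5 higher. In that setting 212 of all 11963 genes were called higher and 107 lower, so the share among dim members was close to that over all genes. The latter include the bright genes, and the share over all dim genes was not computed. The 5 are named after their values were seen. Of 12 dim inflammatory genes 2 were called, of 20 dim interferon and antigen presentation genes 1, and of 22 dim known targets of IL-13 1. The neutrophil chemokines CXCL8 (0.95 ± 0.20, limma adjusted p = 0.0205) and CXCL3 (0.90 ± 0.19, limma adjusted p = 0.023) and the immunoproteasome subunit PSMB8 (1.11 ± 0.24, limma adjusted p = 0.0229) rose, as did the glucose transporter SLC2A3 (0.80 ± 0.16, limma adjusted p = 0.0145) and the ciliogenesis factor FOXJ1 (0.48 ± 0.10, limma adjusted p = 0.0221). Mean signals went from 14.5 to 42.8 for CXCL8, from 10.1 to 34.2 for CXCL3, from 7.96 to 40.6 for PSMB8, from 8.65 to 18.4 for FOXJ1 and from 51.0 to 101 for SLC2A3, with 3 arrays a group. Without IL-13, means at 0 h and 24 h were 41.5 and 73.9 for CXCL8 and 30.7 and 33.1 for CXCL3. Both chemokines at 24 h of IL-13 were thus near their 0 h means. The same means were 6.75 and 5.96 for PSMB8, 7.5 and 15.3 for FOXJ1 and 34 and 61.6 for SLC2A3. The chemokines, PSMB8 and FOXJ1 lay below the median signal of every 24 h array.

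Membrane proteases of the ADAM family were also among the rises. Of 18 tested genes for proteases and their inhibitors, 4 were called higher (22.2%, against 4.14% of all genes tested) and none lower (median 0.16). They were ADAM9 (0.50 ± 0.12), ADAM10 (0.41 ± 0.10), the shedding enzyme ADAM17 (0.47 ± 0.12) and the coagulation inhibitor TFPI (0.68 ± 0.18). Each lost its call in 3 to 7 of 17 settings, and with probe sets averaged ADAM17 stood at 0.28 and TFPI at 0.27. Of 22 apoptosis genes, 4 were called higher (18.2%, against 4.14% of all genes tested) and 1 lower (4.55%, against 2.06%). PMAIP1 and the inhibitor of apoptosis BIRC2 (0.76 ± 0.14) rose, and survivin, BIRC5, fell (-0.55 ± 0.10). The other bright probe sets of BIRC5 stood at -0.17 and -0.25, and the call was lost with all of them averaged (-0.33, limma adjusted p = 0.0519).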
